A study of Mus musculus with 6 samples.

Results

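The genes described here encode the receptor chains for type I and type II interferon, the Janus kinases (JAK) that sit on those chains, and 3 suppressor of cytokine signalling (SOCS) proteins that brake them. They are 10 genes named by their function (Ifnar1, Ifnar2, Ifngr1, Ifngr2, Jak1, Jak2, Tyk2, Socs1, Socs2 and Socs3), out of 32903 gene symbols with a value. They were chosen with earlier results of these data known, and each had a value in the table. Polyadenylated RNA was sequenced from MuTuDC1940, a mouse dendritic cell line, so every library comes from the same line and no whole tissue or animal group is involved. The untreated group received no poly(I:C) and the treated group received it at 5 µg/ml, with RNA taken at 18 hours. Poly(I:C), a synthetic RNA duplex, mimics the RNA of replicating viruses. The series has 3 samples per group, of which 2 libraries per group (headed NT01 and NT02, and PolyIC01 and PolyIC02) are compared.

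Type I interferon binds a receptor made of the IFNAR1 and IFNAR2 chains, which carry TYK2 and JAK1, and type II interferon (interferon gamma) binds IFNGR1 paired with IFNGR2, which carry JAK1 and JAK2. The kinases activate STAT transcription factors, and STAT targets include the Socs genes, whose products return to the receptors and kinases to limit further signalling. Dendritic cells sense both kinds of interferon signal during infection. The type 1 conventional dendritic cell (cDC1) is known to need type I interferon sensing to prime T cells against tumours.

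Values are TPM (transcript abundance per length relative to a fixed total), so levels of different genes can be compared within a library, but TPM carries no sequencing depth, and counting error cannot be computed. All values are relative to the total RNA of each library, and in bulk RNA fewer cells of a type cannot be told apart from less RNA per cell. All 12 cDC1 markers were tested and their summed level was 4417 to 4493 TPM in untreated and 4195 to 4275 TPM in treated libraries, with Itgae low at 0.490 to 0.918 TPM. Of these markers 5 rose, 5 fell and 2 did not pass, where 28.4% of all tested genes rose and 32.4% fell. Irf8, a transcription factor the cDC1 depends on, held most of the sum at 2477 to 2482 TPM without poly(I:C) and 2558 to 2639 TPM with it, while Cd24a fell from 382 to 142 TPM and Xcr1, the chemokine receptor of the cDC1, rose from 192 to 331 TPM. Of 10 macrophage and monocyte markers 7 were tested, 5 rose and 1 fell. The sum of the 10 went from between 305 and 309 TPM to between 518 and 543 TPM. In mean TPM the rises were of C1qa (37.0 to 171), C1qb (12.3 to 125), C1qc (30.1 to 113), Cd14 (8.22 to 12.1) and Fcgr1 (0.327 to 4.71). Lyz2 fell from 218 to 103 TPM, and Adgre1 did not pass. Fcgr1 reached the limit for testing only through the treated libraries. Csf1r, under that limit, was at 0.272 and 0.469 TPM in untreated libraries and listed at 0 in treated ones. Of 5 T cell markers 4 were in the table, their sum was 0.759 to 1.10 TPM without poly(I:C) and 2.23 to 2.32 TPM with it, and Cd3e and Cd3g were listed at 0 in all 4 libraries. Cd3d was the 1 tested T cell marker and rose, from 1.01 and 0.678 to 1.59 and 1.47 TPM (limma adjusted p = 0.0187), and Lck, at 0.0940 and 0.0816, then 0.632 and 0.843 TPM, lay under the limit for testing. The part of these markers in the results below was not tested.

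Socs3 (10.4-fold by the ratio of mean TPM), Socs2 (5.32-fold) and Jak2 (2.72-fold) rose most, followed by Socs1 (1.94-fold). The genes of the receptor chains moved by at most 1.49-fold, and of the 3 kinase genes only Jak2 moved by more than 2-fold. Of the 10 genes, 6 rose (Ifnar1, Ifngr2, Jak2, Socs1, Socs2 and Socs3), 1 fell at the edge of the threshold (Tyk2), and 3 did not pass (Ifnar2, Ifngr1 and Jak1) in limma at an adjusted p under 0.05. Across all 12520 genes tested, 60.8% passed (28.4% rose and 32.4% fell), so that passing the test is common in this comparison. Where a change of 2-fold or more on the log2(TPM + 1) scale is also asked for, 3 of the 10 rose (Jak2, Socs2 and Socs3), against 5.69% of all genes tested, and 0 fell, against 2.76%. The median log2 fold change of the 10 genes was 0.43, and that of all tested genes -0.02. For none of the 10 genes did the range of the groups overlap, 7 with the treated libraries above and 3 below, which is also the case for 81.3% of all tested genes. All 10 were at 0.996 TPM or more in every library, so none passed the filter on low values (a mean of at least 0.5 TPM) through the treated libraries alone. An exact permutation test with this many libraries can reach no p under 0.333 (two-sided) and was not used.

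**Figure D1:**
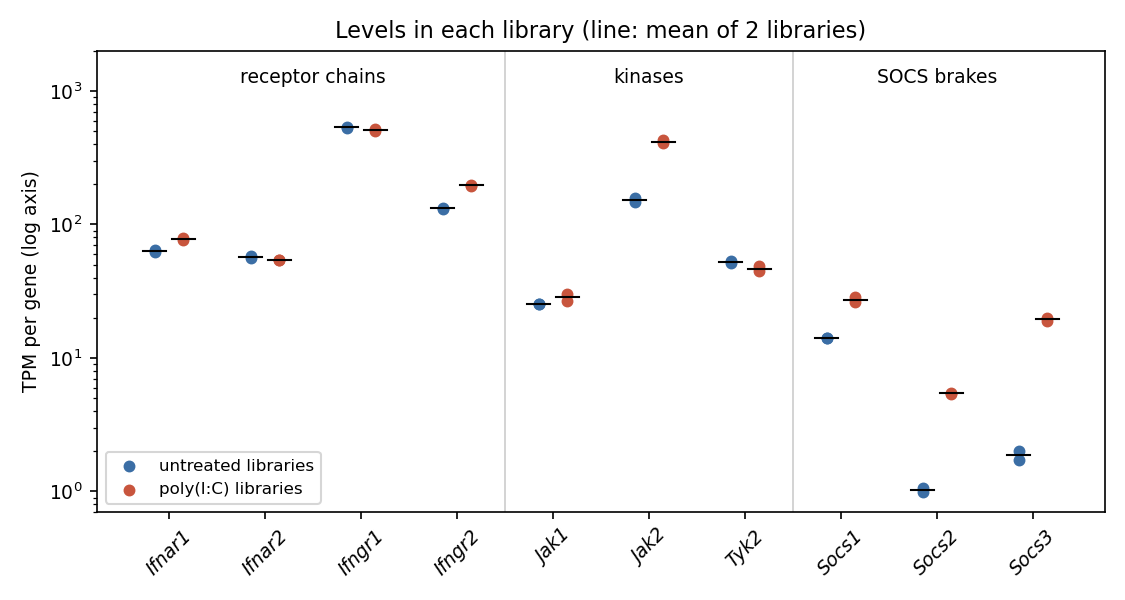
TPM of the 10 genes in each library on a log axis, untreated libraries in blue and poly(I:C) libraries in red, with a line at the mean of 2 libraries. Ifngr1 lies at the top in both groups, between 504 and 540 TPM, the 3 Socs genes lie lowest in the untreated libraries, and Socs3 and Socs2 show the widest gaps between groups.

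The 10 genes stood in the same order of level in both groups. Ifngr1 was highest, followed by Jak2, Ifngr2, Ifnar1, Ifnar2, Tyk2, Jak1, Socs1, Socs3 and Socs2. Neighbours in this order did not overlap between libraries of a group, except Jak1 and Socs1 in treated cells, at 28.5 ± 2.61 and 27.4 ± 1.64 TPM (mean ± SD, n = 2 libraries). The summed TPM of the 4 receptor chains was 783 and 792 in the untreated and 833 and 844 in the treated libraries. That of the 3 kinases was 238 and 225, then 510 and 475, and that of the 3 Socs genes 17.2 and 16.8, then 51.7 and 52.9.

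Summed over transcripts, the genes of the type I receptor chains were similar in level and moved differently. Ifnar1 (gene ID 15975, chromosome 16, 91485032 to 91510523, GRCm38), whose product binds TYK2, was at 64.0 TPM in NT01, 62.4 TPM in NT02, 78.7 TPM in PolyIC01 and 76.4 TPM in PolyIC02. Both treated libraries were above both untreated ones. The gene rose 1.23-fold by the ratio of mean TPM, a log2 fold change of 0.29 with SE 0.035 (limma adjusted p = 0.000968). Ifnar2 (gene ID 15976, chromosome 16, 91372783 to 91405589), the chain that binds JAK1 and holds the ligand most tightly, was at 56.4 and 58.3 TPM without poly(I:C), and at 54.3 and 54.2 TPM with it. The treated libraries were slightly lower, and the difference did not pass (log2 fold change -0.08, 95% interval -0.17 to 0.01, adjusted p = 0.112 in limma). The ratio of Ifnar1 to Ifnar2 TPM was 1.135 and 1.07 in the untreated libraries and 1.45 and 1.41 in the treated ones; this ratio was not itself tested.

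Of the type II receptor genes, the one with more RNA stayed near its level and the one with less RNA rose. Protein was not measured. Ifngr1 (gene ID 15979, chromosome 10, 19591949 to 19610229), which binds the ligand and JAK1, was at 529.65 and 540 TPM in untreated and at 504 and 515 TPM in treated cells, with a log2 fold change of -0.07 (95% interval -0.13 to -0.01) that did not pass (adjusted p = 0.0554 in limma). It ranked 240 and 241 by TPM among all symbols in the untreated libraries, and 270 and 262 in the treated ones. Ifngr2 (gene ID 15980, chromosome 16, 91547059 to 91564007), the chain that brings in JAK2, was at 133 and 131 TPM without poly(I:C), and at 195 and 199 TPM with it. Its treated values were all above the untreated ones, and it rose 1.49-fold (log2 fold change 0.57 with SE 0.027; limma adjusted p = 2.57e-05). The excess of Ifngr1 over Ifngr2 thereby went from 3.99 and 4.11 times in the untreated to 2.58 and 2.59 times in the treated libraries, a ratio of TPM that was not itself tested.

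Ifnar2, Ifnar1 and Ifngr2 lie on the same strand within 191.2 kb of chromosome 16 (91372783 to 91564007), together with Il10rb, which encodes a chain shared by the interleukin-10 and type III interferon receptors. These are the 4 protein-coding genes of that span, and 3 of them rose: Il10rb (log2 fold change 0.54), Ifnar1 and Ifngr2. Of all genes tested 28.4% rose. In the 100 kb on either side, 4 genes were tested, all of them on the side of Ifngr2. Tmem50b, next to Ifngr2, fell from 127 to 78.2 TPM (-0.70). Gart, an enzyme of purine synthesis, fell from 74.8 to 53.3 TPM (-0.48), and Dnajc28 and Son did not pass. Inside the span, the long non-coding RNA A930006K02Rik did not pass either. Among the tested genes of this window the rises thus lay in receptor genes, with no tested flank gene on the side of Ifnar2 to compare. Ifnar2, at the left end of the span, was the receptor gene that did not pass.

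**Figure D2:**
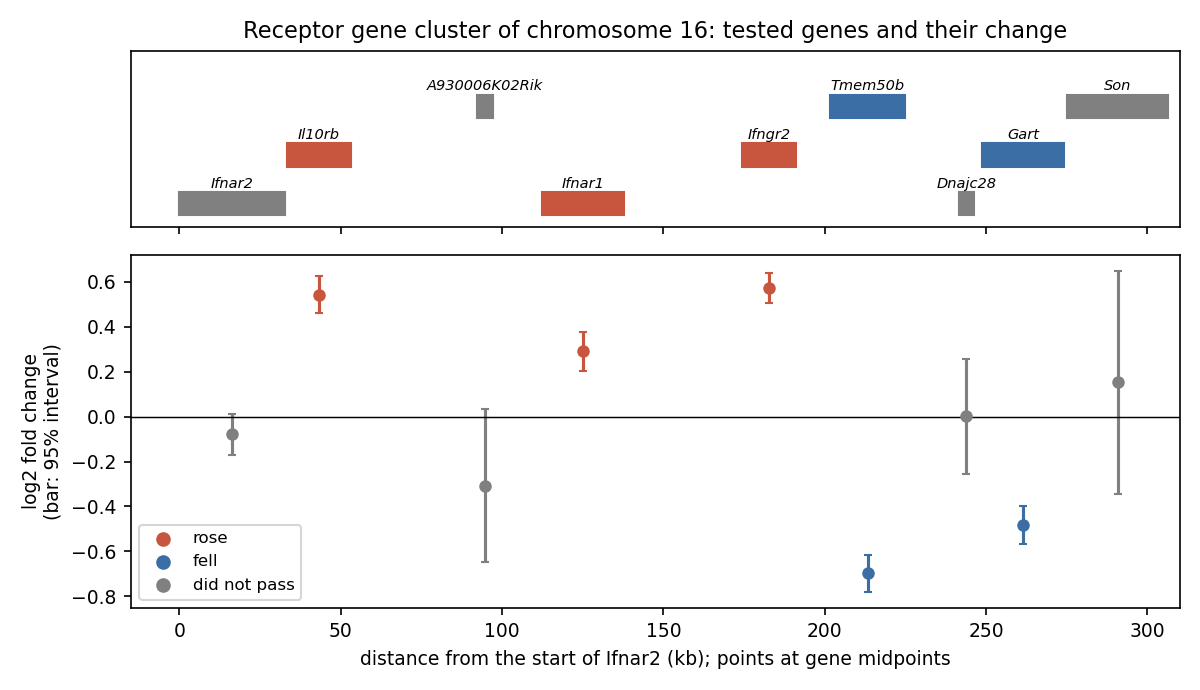
Top, the 9 tested genes of the receptor cluster and its 100 kb flanks drawn to scale by distance from the start of Ifnar2, coloured by call. Bottom, their log2 fold changes on the log2(TPM + 1) scale with 95% intervals from limma; Il10rb, Ifnar1 and Ifngr2 lie above 0, while Tmem50b and Gart lie below.

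Of the kinases, Jak2 set itself apart in level and in change. Jak2 (gene ID 16452, chromosome 19, 29251803 to 29313095), which serves IFNGR2 and many other cytokine receptors, was at 159 and 149 TPM without poly(I:C), and at 431 and 404 TPM with it. The treated values lay far above the untreated ones, and Jak2 rose 2.72-fold (log2 fold change 1.44 with SE 0.047; limma adjusted p = 8.70e-06), a log2 fold change above that of 97.0% of tested genes, falls included. Jak1 (gene ID 16451, chromosome 4, 101151974 to 101265282), which serves both interferon receptors, was at 25.3 and 25.4 TPM without poly(I:C), and at 30.4 and 26.7 TPM with it. Its treated libraries differed from each other by more than PolyIC02 differed from the untreated ones, and the gene did not pass (log2 fold change 0.16, 95% interval -0.01 to 0.34, adjusted p = 0.0901 in limma). It passed when PolyIC02 was left out (log2 fold change 0.25, adjusted p = 0.0263) and was at 0.07 (adjusted p = 0.449) when PolyIC01 was left out.

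Tyk2 (gene ID 54721, chromosome 9, 21104068 to 21131393), the kinase of IFNAR1, was at 53.6 and 51.1 TPM without poly(I:C), and at 48.9 and 44.4 TPM with it. The treated values were lower, by 1.12-fold in the mean, and the gene fell by 0.16 on the log2 scale (SE 0.057, adjusted p = 0.0499 in limma). This call was lost under 7 of 13 alternative settings, among them without NT01 (adjusted p = 0.139) and without PolyIC02 (adjusted p = 0.224). The ratio of Jak2 to Jak1 TPM was 6.29 and 5.86 in the untreated and 14.2 and 15.1 in the treated libraries, and that of Jak2 to Tyk2 went from 2.96 and 2.90 to 8.82 and 9.09.

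All 3 Socs genes rose, and the gene with the highest untreated level rose least. Socs1 (gene ID 12703, chromosome 16, 10783808 to 10785536) encodes the SOCS protein best known for shutting down interferon receptors by inhibiting the JAK catalytic site. It was at 14.1 TPM in both untreated libraries and at 26.2 and 28.5 TPM in the treated ones. With all treated values above the untreated ones, it rose 1.94-fold (log2 fold change 0.91 with SE 0.060; limma adjusted p = 9.04e-05). Socs2 (gene ID 216233, chromosome 10, 95383903 to 95417321), known as the brake of growth hormone signalling, was at 1.06 and 0.996 TPM without poly(I:C), and at 5.41 and 5.50 TPM with it. It rose 5.32-fold (log2 fold change 1.67 with SE 0.084; limma adjusted p = 3.45e-05) and remained the lowest of the 10 genes. Socs3 (gene ID 12702, chromosome 11, 117966079 to 117970336), the brake of receptors that signal through gp130, such as that of interleukin-6, was at 2.00 and 1.72 TPM without poly(I:C), and at 20.1 and 18.85 TPM with it. It rose 10.4-fold (log2 fold change 2.84 with SE 0.084; limma adjusted p = 6.55e-06), and 75 of the tested genes that passed rose more. The excess of Socs1 over Socs3 therefore went from 7.05 and 8.185 times to 1.31 and 1.51 times by TPM.

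The promoter windows of Socs1 and Socs3, which rose, and of Ifnar2, which did not pass, are described because they carry letters that match the elements bound by STAT complexes. Sequences are from RefSeq (GRCm38.p6), whose promoter table held 9 of the 10 genes, all but Socs2, with 250 bases before and 50 bases after 1 start site per gene. That site is the outer end of the gene span given above in 5 genes, Socs1 and Ifnar2 among them. In the other 4 it lies inside the span, by 970 bases in Socs3, 183 in Ifnar1, 118 in Tyk2 and 59 in Jak1, and positions below count from it. For Socs1 and Ifnar2 the 250 bases before the site are printed 5′ to 3′ on the strand of the gene, and capitals mark the motif matches; for Socs3, whose window lies within its gene span, only the match is given.
Socs1 (chr16:10785537-10785786, minus strand): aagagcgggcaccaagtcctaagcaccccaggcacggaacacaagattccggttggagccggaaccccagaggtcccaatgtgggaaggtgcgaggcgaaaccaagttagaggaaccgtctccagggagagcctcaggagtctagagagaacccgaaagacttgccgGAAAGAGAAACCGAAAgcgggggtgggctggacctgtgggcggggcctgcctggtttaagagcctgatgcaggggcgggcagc
Ifnar2 (chr16:91372533-91372782, plus strand): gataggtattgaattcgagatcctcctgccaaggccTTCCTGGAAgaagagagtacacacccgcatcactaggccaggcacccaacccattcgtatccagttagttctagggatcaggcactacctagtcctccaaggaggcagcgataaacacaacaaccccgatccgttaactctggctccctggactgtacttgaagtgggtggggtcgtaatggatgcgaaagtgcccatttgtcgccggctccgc
In Socs1 the capitals are 2 overlapping matches to the core of the interferon-stimulated response element (ISRE; GAAANNGAAA on either strand), GAAAGAGAAA from 83 bases before the start and GAAACCGAAA from 77 bases before it. In Socs3 there is a match to the gamma-activated site (GAS; TTCNNNGAA, the same on both strands), TTCTTAGAA, from 154 bases before the start site of the window. In Ifnar2 the capitals are the GAS TTCCTGGAA, from 214 bases before the start, which also fits the tighter form TTCCNGGAA. Of 32851 promoters of this length, 3.44% held the ISRE core, 8.3% the GAS and 1.15% its tighter form. Ifnar1 had a GAS match (TTCACGGAA) across the start site of its window, inside the gene span, and the windows of Ifngr1, Ifngr2, Jak1, Jak2 and Tyk2 held no match to these letters. The matches describe letters only: Jak2, which rose, has none in its window and Ifnar2, which did not pass, has the tightest.

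The deposited values are per transcript, and they show which transcripts make up each gene; divisions between transcripts of a gene are estimates from shared reads, and they were not tested. Mouse Ifnar2 is known to give a long form that spans the membrane and signals, and a short form that is released from the cell. The curated transcript that codes for 248 residues (linked in GENCODE M21) held 75.9% and 77.8% of Ifnar2 TPM in the untreated and 80.8% and 78.8% in the treated libraries. The curated transcript that codes for 513 residues was at 10.2 and 9.90 TPM without poly(I:C), and at 8.70 and 9.09 TPM with it. The short-coding transcript thus dominated Ifnar2 in all 4 libraries, per length of RNA. In Tyk2 the curated transcript coding for 1184 residues was at 2.93 and 3.37 TPM without poly(I:C), and at 0.740 and 0.281 TPM with it, while the curated transcript coding for 1207 residues was at 4.77 and 5.58, then 7.90 and 6.66 TPM. The most abundant Tyk2 transcript, a predicted one, went from 24.3 and 24.9 to 17.1 and 15.1 TPM. The small change of Tyk2 as a gene is thus a sum over transcripts, some higher and some lower in the treated libraries.

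**Figure D3:**
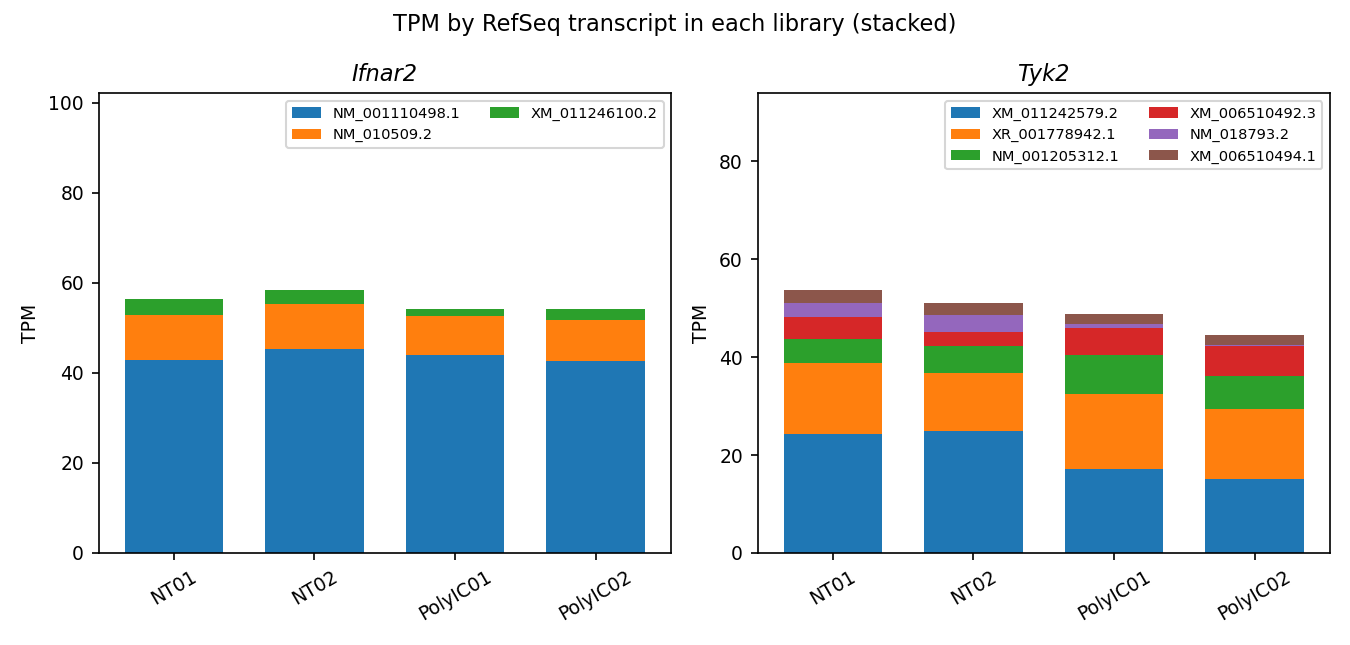
TPM of each RefSeq transcript of Ifnar2 and Tyk2, stacked per library. NM_001110498.1, which codes for 248 residues, fills most of each Ifnar2 bar, and in Tyk2 the lowest segment is shorter in the 2 treated libraries.

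In Socs2 the transcript NM_007706.4 held 58.4% and 49.5% of TPM without poly(I:C), and 72.3% and 69.5% with it. Its transcript NM_001168657.1 held 5.40% and 46.6%, then 21.9% and 16.4%, so the untreated libraries differed widely from each other. The curated main transcript of Jak2 held 61.8% and 63.2% of its TPM in the untreated and 59.3% in both treated libraries, and all 7 Jak2 transcripts were higher in the treated libraries. In Ifnar1 a predicted non-coding transcript held 66.5% to 68.8% of the gene's TPM, and the curated coding transcript was at 21.4 and 19.5, then 25.3 and 24.8 TPM. Both Socs1 transcripts code for 212 residues, and the less abundant of them held 13.5% and 22.6% of the TPM in the untreated and 29.9% and 26.0% in the treated libraries. In Socs3, which codes for 225 residues, the curated transcript held 80.5% to 85.9%.

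The remaining members of the JAK and SOCS families did not follow a common direction. Of 6, 5 were tested, 1 rose and 2 fell, and the median log2 fold change was -0.12. Across all tested genes 28.4% rose and 32.4% fell. Jak3, the kinase of the common gamma chain of interleukin receptors, was at 25.6 and 23.8 TPM without poly(I:C), and at 49.6 and 47.9 TPM with it, and rose by 0.95 on the log2 scale (SE 0.052). Socs6 fell from 30.2 ± 1.07 to 19.6 ± 0.344 TPM (-0.60) and Socs5 from 13.7 ± 0.120 to 10.3 ± 0.286 TPM (-0.38; SD, n = 2 libraries). The Socs5 call was lost with curated transcripts only (adjusted p = 0.372 in limma). Socs4 (log2 fold change -0.01, 95% interval -0.16 to 0.15) and Socs7 (-0.12, interval -0.26 to 0.02) did not pass. With curated transcripts only, Socs7 turned to a log2 fold change of 0.44 and passed (adjusted p = 0.0132 in limma). Cish, the founding member of the family, was at 0.0302 and 0.0233 TPM without poly(I:C), and at 0.161 and 0.239 TPM with it, under the limit for testing.

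**Figure D4:**
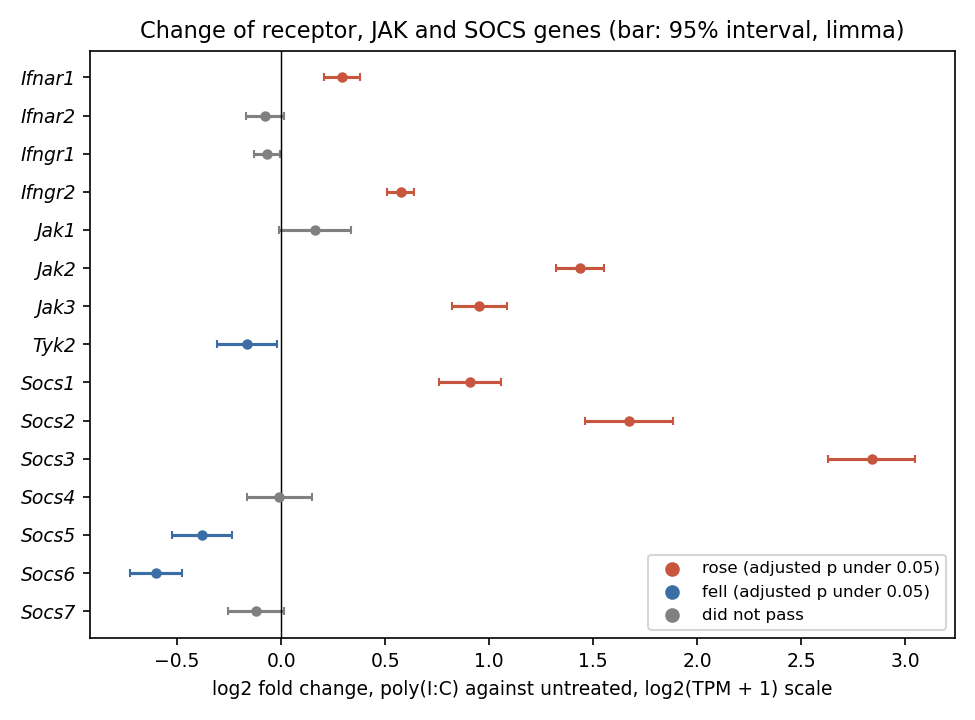
Log2 fold changes on the log2(TPM + 1) scale with 95% intervals from limma for the receptor chains and all tested JAK and SOCS genes, coloured by call. Socs3 lies farthest to the right at 2.84, and Socs6 farthest to the left at -0.60.

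Downstream of the kinases, 7 of 8 STAT and IRF9 genes were tested, 6 rose and 1 fell, with a median log2 fold change of 0.59. By comparison, 28.4% of the 12520 tested genes rose and 32.4% fell, so that 60.8% passed in either direction. Stat2, whose product works with IRF9 at the ISRE, was at 53.2 and 47.0, then 211 and 196 TPM (log2 fold change 2.00). Irf9 itself rose from 99.2 ± 2.84 to 142 ± 0.952 TPM (0.52; SD, n = 2 libraries), and Stat5a from 3.89 ± 0.568 to 6.65 ± 0.994 TPM (0.65). With curated transcripts only, Stat5a was at 0.31 and did not pass (adjusted p = 0.0994 in limma), which left 5 rises and 0 falls in this list. The gene that fell was Stat5b (-0.16, adjusted p = 0.0371 in limma), a call lost without any 1 of the 4 libraries. All 15 type I signature targets rose by 2-fold or more, against 5.69% of all genes tested, with a median log2 fold change of 2.87. The largest log2 fold changes with a pseudocount of 1 were those of Ifit3 (5.47), Irf7 (5.03) and Ifit1 (4.51). Irf7 was at 0.232 and 0.247 TPM without poly(I:C), reached the limit for testing only through the treated libraries, and comes before Ifit3 with a pseudocount of 0.5 (5.75 against 5.64) or 0.1 (6.86 against 5.79). Of 10 type II signature targets 9 were tested and 8 rose, against 28.4% of all genes tested. The median log2 fold change of the 9 was 1.79. Among the rises were Cxcl9 (4.49), Gbp2 (3.60) and Cd274 (2.59), and type I interferon also raises many of these targets. Ido1, among the 8, was at 0.251 and 0.302, then 3.23 and 2.80 TPM, and reached the limit for testing only through the treated libraries. The target that did not pass was Ciita, the activator of MHC class II genes, at 67.9 and 67.7 TPM without poly(I:C), and at 68.9 and 75.2 TPM with it. All 21 interferon ligand genes lay under the limit for testing, 11 of them listed at 0 in all 4 libraries, Ifng among these, and Ifnb1 was at 0.0483 and 0.0420, then 0.359 and 0.393 TPM.

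Among brakes of other kinds, Usp18 was near Socs3 in log2 fold change with pseudocount 1, and below it with pseudocount 0.1 (2.925 against 3.32). Its product removes ISG15 from proteins and also binds IFNAR2 to block JAK1 there. It was at 65.4 and 64.0 TPM without poly(I:C), and at 499.55 and 484 TPM with it, a rise of 7.60-fold (log2 fold change 2.91 with SE 0.030; limma adjusted p = 3.99e-07). Of 13 negative regulators, all tested, 6 rose and 3 fell, and the median log2 fold change was 0.09. Across all tested genes 28.4% rose and 32.4% fell. The tyrosine phosphatase genes Ptpn1 (36.6 ± 0.353 to 76.9 ± 0.0896 TPM, 1.05), Ptpn6 (183 ± 1.98 to 361 ± 1.21 TPM, 0.97) and Ptpn2 (40.8 ± 2.32 to 63.5 ± 0.913 TPM, 0.63) rose, all encoding enzymes that act on JAK or STAT proteins (SD, n = 2 libraries). Of the further phosphatase genes of the list, Ptprc rose from 219 ± 5.83 to 356 ± 11.1 TPM (0.70) and Ptpn11 fell from 88.8 ± 1.71 to 60.8 ± 1.05 TPM (-0.54). Of the 4 Pias genes, whose products bind STAT proteins, Pias3 fell (-0.33) and the other 3 did not pass. Of the 4 partners that join a SOCS protein to its ubiquitin ligase, Elob fell from 572 ± 6.73 to 439.74 ± 0.328 TPM (-0.38), and Eloc, Cul5 and Rnf7 did not pass.

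**Figure D5:**
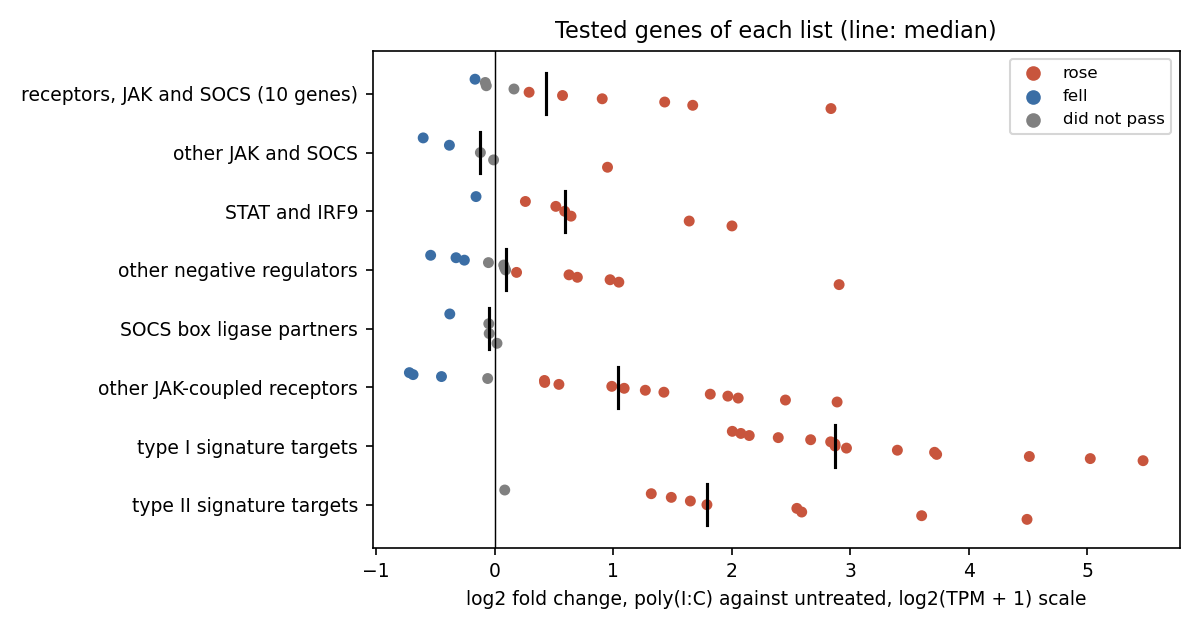
Log2 fold changes of the tested genes of each list on the log2(TPM + 1) scale, coloured by call, with a line at the median of the list. The 10 receptor, JAK and SOCS genes have a median of 0.43, against 2.87 for the type I signature targets and 0.09 for the other negative regulators.

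The genes most alike in pattern were found for the member of each role with the largest change, as the 3 genes with the smallest Euclidean distance of centred log2(TPM + 1) over the 4 libraries. For Ifngr2 they were St6galnac6, Gm5860 and Tap2 (distances 0.018 to 0.020), and 218 genes lay within 0.1. For Jak2 they were Serpinb6b, Samhd1 and Rhbdf2 (0.026 to 0.031), with 41 genes within 0.1. For Socs3 they were Sema7a, Mx1 and Ifih1 (0.050 to 0.067), with 8 genes within 0.1. With 4 libraries in 2 groups this likeness mostly restates the size of the change.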

How the data were processed

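The authors deposited 1 table of TPM values per RefSeq transcript; the file is named for FPKM, but each column used sums to 1000000. Per the submitters' processing notes, kallisto 0.42.4, bcl2fastq 2.20.0.422 and the build GRCm38 were used; use of strand is not given there. The header has 5 names for 6 value columns, so only the 4 columns whose group is settled under either reading were used and 2 were not. This choice was made knowing from an earlier look at these data that the column headed NT03 resembled the treated ones.

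Of 107384 transcripts, 80.8% matched a gene symbol (RefSeq, GRCm38.p6) and were summed per gene, holding 91.8% to 92.2% of TPM. The 12520 genes whose mean reached 0.5 TPM were compared on log2(TPM + 1) with limma 3.58.1 (trend, robust; R 4.3.3; 2 residual degrees of freedom), adjusted by Benjamini-Hochberg over all of them; the script was tested on simulated data. Tables used pandas 2.3.3 and numpy 2.4.6 in Python 3.11.15, and plots matplotlib 3.10.9. Depth is unknown, and the labels name no separate cultures, so p-values reflect spread that may be technical. Text names the 10 members, the rest of their families, 10 preset regulators and up to 3 passing genes with the largest change per list. Genes outside this rule (Tmem50b, Gart, Dnajc28, Son, A930006K02Rik, Stat5b, Ciita, Ido1, Ptpn11, Ptprc, Pias3, Eloc, Cul5, Rnf7 and markers) were chosen after their values were seen. Members and lists were chosen with earlier results of these data known. The alternatives were other pseudocounts, filters, scalings, moderation, transcripts, a replicate block and leaving out each library. Some preset genes are not reported here.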

Additional observations from a re-analysis of the deposited data

How the results depend on the processing

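The rises of Ifnar1, Ifngr2, Jak2, Socs1, Socs2 and Socs3 kept their direction and passed under all 13 alternative settings; over these the log2 fold change was 0.27 to 0.31 for Ifnar1, 0.56 to 0.59 for Ifngr2, 1.36 to 1.48 for Jak2, 0.85 to 0.97 for Socs1, 1.65 to 2.30 for Socs2 and 2.77 to 3.32 for Socs3. The number of members that fell was 1 and became 0 with a pseudocount of 0.1 or 0.5, with no low value filter, without trend and robust moderation, and with curated transcripts only; leaving out each library in turn gave 0 to 1. It was 2 with the replicate block on heading numbers, where Ifngr1 passed (adjusted p = 0.0189 in limma). The numbers are not settled by the header. Deviations of same-numbered libraries correlated at 0.022 across genes. With 2 libraries per group this is a single value, so it cannot show whether same-numbered libraries share a batch. Jak1 passed with median ratio scaling (adjusted p = 0.0474), which made 7 rises. Of the other JAK and SOCS genes 2 rose with curated transcripts only, where Socs7 turned to 0.44 and 1 fell, and 2 rose with no low value filter (Cish was added). The 1 fall among STAT genes became 0 with curated transcripts only, with no low value filter and without each library in turn (0 each time), and the interferon ligands had 2 rises with no low value filter (Ifnb1 and Ifnl3). Leaving out a library also leaves fewer samples, and the cause of the differences between settings was not tested. No scaling moved the median of all genes by over 0.1. Depth is unknown, so no limit of detection can be given for genes listed at 0.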

Other observations

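Other receptors that signal through JAK proteins included larger rises than those of the type I and type II interferon receptor chains, a difference between lists that was not tested. Of 23 such genes, Ifnlr1 and Il10rb of the type III interferon receptor among them, 16 were tested, 12 rose and 3 fell. Of all genes tested 28.4% rose and 32.4% fell. The median log2 fold change of the list was 1.04, and 8 rose at least 2-fold, against 5.69% of all genes tested. Il2rg, the common gamma chain that carries JAK3, was at 1.10 and 0.986 TPM without poly(I:C), and at 14.5 and 13.8 TPM with it (log2 fold change 2.89). Csf2rb, the beta chain of the receptor for granulocyte-macrophage colony-stimulating factor, which carries JAK2, rose from 32.8 ± 1.68 to 184 ± 8.36 TPM (2.45; SD, n = 2 libraries). Il21r was at 0.0711 and 0.0822 TPM without poly(I:C), and at 3.80 and 3.17 TPM with it (2.06), and reached the limit for testing only through the treated ones. The ligand-binding chain of the type III interferon receptor, Ifnlr1, fell from 1.45 ± 0.0507 to 0.490 ± 0.147 TPM (-0.72), while Il10rb, its partner, rose from 50.6 ± 0.521 to 74.2 ± 0.119 TPM.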
